A study of Mus musculus with 6 samples.

Results

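Axon guidance ligands and receptors are the cell-surface and secreted proteins that steer growing axons, and 75 of their protein-coding genes are described here in mouse embryonic fibroblasts (MEFs), fibroblasts grown out of embryos. The genes were chosen by symbol from the 54752 rows of the deposited count table: semaphorins, plexins, ephrins, Eph receptors, netrins, UNC5 receptors, SLIT and ROBO genes, together with Dcc, Neo1, Nrp2, Rgma, Rgmb, Chl1 and L1cam. A count in at least 1 library was found for 68 of the 75, and 61 passed the filter on low counts and were tested. Of the genes not tested, 7 had a count of 0 in every library and the others had too few counts. That filter passes a gene that is present in 1 group alone, so a gene such as Ntng2 was tested only through the group where it is high.

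The shARF group held 3 libraries of MEFs in which lentivirus had delivered a hairpin (shRNA) that targets p19ARF, a product of Cdkn2a. The shNT group held 3 libraries of MEFs that had received a negative control shRNA in the same way. Both groups are described as p53-deleted and carry the tag neo, whose meaning the labels do not give. The genotype label reads ARF knockdown for shARF and, beside the same p53-deleted cell line, WT for shNT. Replicates are called biological, but the labels do not say whether they came from separate infections, cultures or embryos, and the p-values below measure only the spread between libraries, which may be technical. Total RNA depleted of ribosomal RNA was sequenced, and values are given as CPM, that is counts per 1 M counts of a library after scaling. Libraries held 40.3 to 47 M counts.

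Guidance proteins act in ligand and receptor pairs. Semaphorins signal through plexins, the secreted ones mostly with a neuropilin as co-receptor. Ephrins are bound to the membrane and signal through Eph receptor tyrosine kinases on the touching cell, netrins bind DCC, neogenin and UNC5 proteins, RGM proteins bind neogenin, and SLIT proteins bind ROBO receptors. Outside the nervous system the same pairs act on cell migration, adhesion and blood vessel patterning, and fibroblasts and other mesenchymal cells express many of them.

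The hairpin's target, Cdkn2a, was at 95.6, 103 and 107 CPM in the shARF libraries and at 231, 218 and 223 CPM in the shNT libraries, with a log2 fold change of -1.14 (SE 0.05, adjusted p = 2.52e-06). These counts are of the whole gene, so they do not give the p19ARF transcript alone. Here and below, fold changes are shARF over shNT, and p-values come from edgeR's quasi-likelihood test with Benjamini-Hochberg adjustment over all 17128 genes tested. Of 12 fibroblast markers 5 rose and 3 fell, with sums of 24525 to 24948 CPM in shARF and 21464 to 22998 CPM in shNT. Col1a1 was at 9360 ± 43.0 CPM in shARF and 7123 ± 320 CPM in shNT (SD, n = 3 each, as for all means below). Pdgfra fell to 91.4 ± 2.23 CPM in shARF, against 502 ± 5.64 CPM in shNT, and Dcn to 45.5 ± 3.55 CPM in shARF, against 198 ± 5.00 CPM in shNT. The neuronal markers Rbfox3 and Dcx, the glial and neural crest markers Sox10, Foxd3, Olig1 and Olig2 and the endothelial markers Cdh5 and Tie1 had a count of 0 in every library. The 12 neuronal markers summed to between 115 and 123 CPM in shARF and between 105 and 109 CPM in shNT, mostly Map2 and Tubb3. Of the 7 tested, 3 rose (Map2, Tubb3 and Gap43) and 2 fell. Stmn2 averaged 6.12 CPM in shARF and 18.8 CPM in shNT, and Syt1 1.16 CPM in shARF and 4.32 CPM in shNT. Epithelial markers summed to 7.05 to 7.73 CPM in shARF and 15.3 to 17.5 CPM in shNT, endothelial markers to 7.53 to 8.97 CPM in shARF and 9.62 to 10.5 CPM in shNT, and immune markers to 1.5 to 1.99 CPM in shARF and 6.73 to 7.47 CPM in shNT. The epithelial and endothelial sums cover moves in both directions. Of 5 epithelial markers tested, 2 rose and 1 fell. Krt18 averaged 0.150 CPM in shARF and 12.7 CPM in shNT, but Cdh1 4.80 CPM in shARF and 2.14 CPM in shNT. Krt14 averaged 1.91 CPM in shARF and had no count in shNT. Of 4 endothelial markers tested, 1 rose and 2 fell. Kdr averaged 3.13 CPM in shARF and 0.282 CPM in shNT, while Tek (0.067 and 2.16 CPM) and Erg (1.11 and 3.18 CPM) were lower in shARF. The groups also differed in genes that mark other things than the hairpin. Xist, the RNA of the inactive X chromosome, was at 40.7 to 54.3 CPM in shARF and 360 to 413 CPM in shNT, and Ddx3y of the Y chromosome was at 80.7 to 88.9 CPM in shARF and 22.8 to 26.0 CPM in shNT. Kdm5d, also of the Y chromosome, was at 18.8 to 19.9 CPM in shARF and 0.534 to 0.923 CPM in shNT, and all 4 Y-linked genes listed rose. Of 6 mesothelial markers, 5 rose and 1 (Msln) fell, and their sum was 120 to 124 CPM in shARF and 105 to 108 CPM in shNT. Upk1b and Lrrn4 were at 8.41 to 10.0 CPM in shARF and had no count in shNT. The labels do not say whether both groups came from the same culture of MEFs, so in every fold change below the hairpin and a difference between starting cultures cannot be told apart. The part of the marker differences in the results was not tested. In bulk RNA, fewer cells of a type and less RNA per cell cannot be told apart.

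Guidance genes changed in both directions. Among the 61 tested, 24 rose and 22 fell in shARF, and 15 did not pass the test. The background is high in this comparison, since 28.8% of all genes tested rose and 27.7% fell, or 56.4% together, against 75.4% of the guidance genes. A change of 2-fold or more that passed the test was seen in 24 of the 61, 12 in each direction. Over all genes tested 6.59% rose and 7.78% fell by that much, 14.4% together. The median absolute log2 fold change was 0.69 over the guidance genes and 0.34 over all genes tested, while the signed medians were 0.04 and -0.01. The shARF and shNT values were fully separated in 49 of the 61 genes, against 64.6% of all genes tested. By role, 9 of 36 ligands rose and 15 fell, with a median log2 fold change of -0.10. Of 23 receptors 13 rose and 7 fell, with a median of 0.31. Both adhesion receptors of the L1 family rose.

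**Figure D1:**
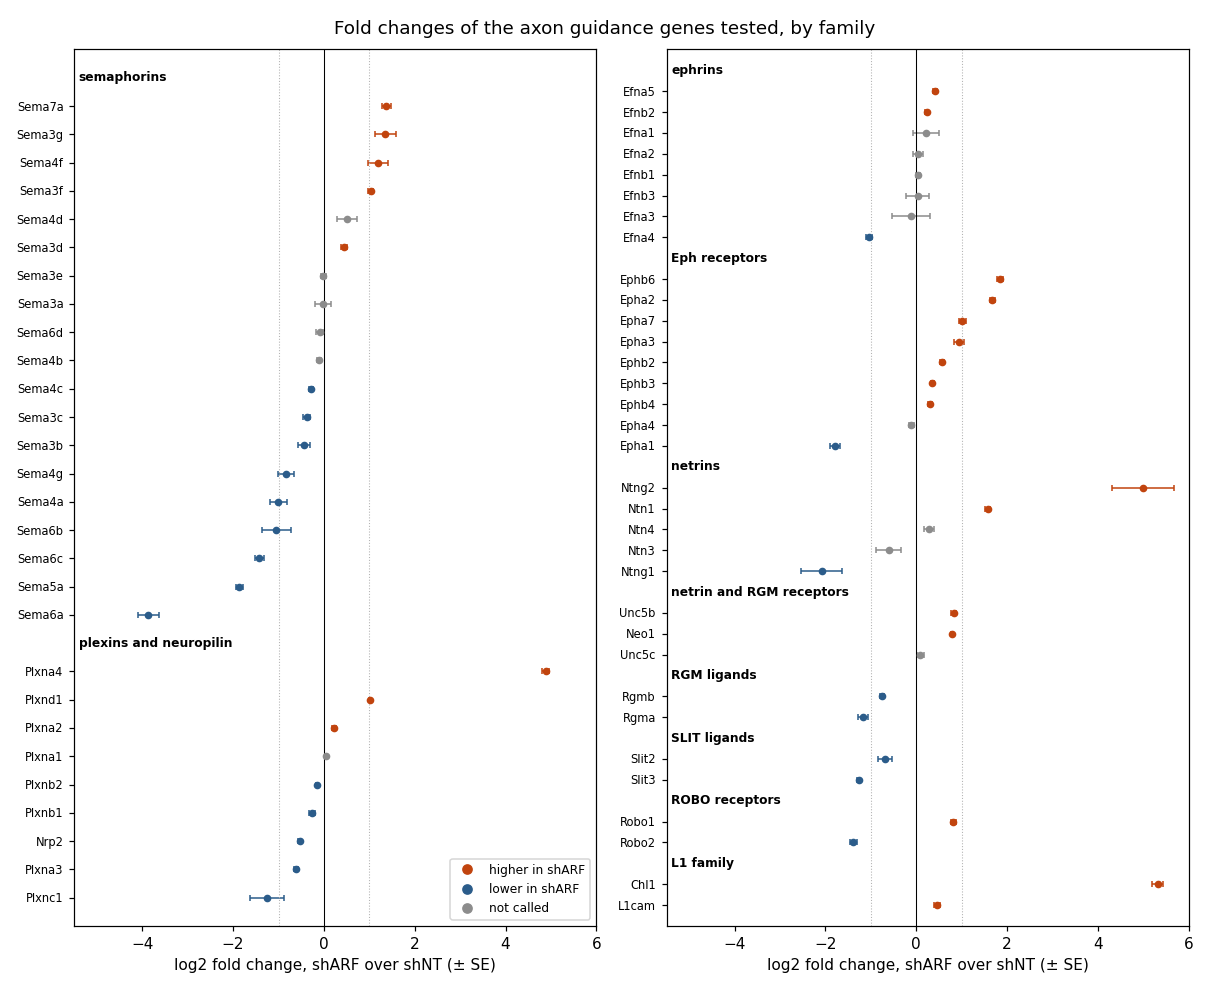
Log2 fold change (shARF over shNT, horizontal axis) of the 61 guidance genes tested, ordered within each family, with the standard error of the fit as bars, dotted lines at 2-fold, and colours for the edgeR call. Ephrins lie near 0 apart from Efna4, most Eph receptors lie to the right, and Plxna4, Ntng2 and Chl1 lie farthest to the right.

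**Figure D2:**
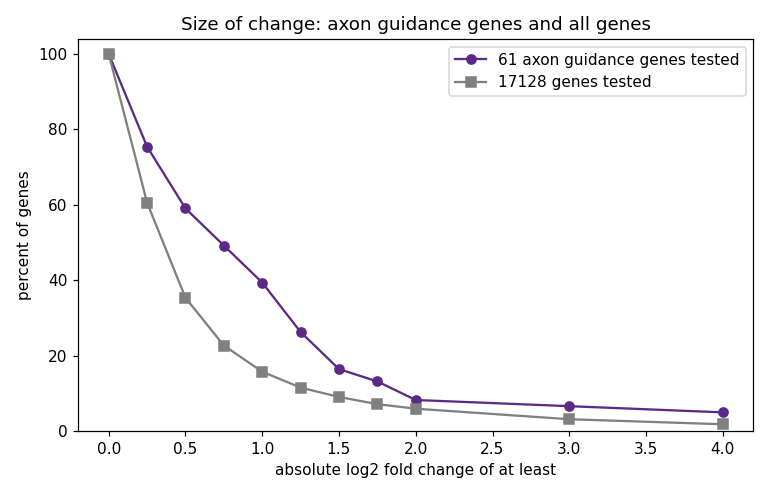
Percent of genes (vertical axis) whose absolute log2 fold change reached at least the value on the horizontal axis, for the 61 guidance genes (circles) and all 17128 genes tested (squares). At 1, which is 2-fold, the shares were 39.3% and 15.7%, called or not, and at 2 they were 8.2% and 5.89%.

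Among the receptors for semaphorins, Plxna4 stood out. Plxna4 (ENSMUSG00000029765.12; GRCm38 chromosome 6, 32144268 to 32588192, minus strand) encodes plexin-A4, which transmits signals of class 3 semaphorins with neuropilins and of class 6 semaphorins directly. It was at 75.9, 75.3 and 81.1 CPM in shARF libraries and at 2.87, 2.61 and 2.38 CPM in shNT libraries. All 3 shARF libraries were thus far above all 3 shNT libraries, and the fold was 29.5 (log2 fold change 4.88, SE 0.08, adjusted p = 1.47e-07). Plxnd1, the receptor for Sema3e known from blood vessel patterning, was at 154, 156 and 156 CPM in shARF and 75.9, 75.3 and 79.1 CPM in shNT (1.02, SE 0.03, adjusted p = 5.95e-07), again without overlap. Plxna2 rose by a smaller step, to 85.8 ± 3.33 CPM in shARF against 73.7 ± 2.91 CPM in shNT (0.22, adjusted p = 0.00519).

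The remaining members of this family fell or did not pass. Nrp2, the co-receptor neuropilin-2, was at 202, 196 and 205 CPM in shARF and 300, 297 and 277 CPM in shNT (log2 fold change -0.54, adjusted p = 2.69e-05). Plxna3 fell by 0.61 and Plxnb1 by 0.26 on the log2 scale. Plxnb2, a receptor of class 4 semaphorins, had the highest level per kb of exon among the plexins and neuropilin, 81.3 ± 0.894 CPM per kb in shARF and 89.9 ± 2.1 CPM per kb in shNT. It was at 635, 622 and 625 CPM in shARF and 679, 693 and 711 CPM in shNT, so its fall was small, though the groups did not overlap (-0.15, adjusted p = 0.0014). Plxna1 averaged 518 ± 3.73 CPM in shARF and 503 ± 3.77 CPM in shNT (0.04, adjusted p = 0.063). With library sizes alone as the scaling, it was called lower (-0.046, adjusted p = 0.049; the alternatives spanned 0.049 to 0.531). Nrp1, the other neuropilin and no member of the chosen set, was at 169, 165 and 170 CPM in shARF and 150, 157 and 148 CPM in shNT (0.15, adjusted p = 0.00487). Plxnc1, the receptor for Sema7a, was below 1 CPM in every library and fell (-1.25, adjusted p = 0.0244). Its call was lost without shARF replicate 3 (adjusted p = 0.0621), shNT replicate 1 (0.0595) or shNT replicate 3 (0.0681). Plxnb3 had 0, 7 and 6 counts in the shARF libraries and 0 in every shNT library and was not tested. Summed per kb of exon, plexins and Nrp2 were at 194 ± 1.08 CPM per kb in shARF and 195 ± 2.1 CPM per kb in shNT.

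Of the 19 semaphorins tested, 5 rose and 9 fell, beside 28.8% and 27.7% of all genes tested. Together 73.7% of these semaphorins were called, against 56.4% of all genes tested. The class 3 semaphorins, which are secreted, had 3 of 7 members higher and 2 lower. Sema3f, a secreted ligand that acts through neuropilin-2, was at 168, 159 and 171 CPM in shARF and 78.6, 77.8 and 87.1 CPM in shNT. The groups did not overlap, and the fold was 2.05 (log2 fold change 1.03, SE 0.05, adjusted p = 6.77e-06). Sema3g was low, at 1.94, 2.12 and 1.5 CPM in shARF and 0.847, 0.801 and 0.51 CPM in shNT (1.35, SE 0.24, adjusted p = 0.00256). Sema3d rose less (0.44). Per kb of exon the order of the 2 most abundant semaphorins differed by group: in shARF Sema3f was at 32.0 and Sema3c at 22.3 CPM per kb, and in shNT Sema3f was at 15.6 and Sema3c at 29.0 CPM per kb. In CPM Sema3c was at 140, 168 and 169 CPM in shARF and 209, 217 and 196 CPM in shNT, below every shNT library (-0.38, adjusted p = 0.00514). Sema3b fell by 0.44 on the log2 scale (adjusted p = 0.0202), a call that was lost without shNT replicate 1 (adjusted p = 0.0564) or shNT replicate 2 (0.0687). Sema3a, a ligand known as a collapsing factor of growth cones, was at 152, 157 and 157 CPM in shARF but at 191, 172 and 110 CPM in shNT. Its 3 shNT libraries lay on both sides of the shARF libraries (-0.02, SE 0.19, adjusted p = 0.936). Without shNT replicate 3, the lowest of them, Sema3a was called lower (-0.23, adjusted p = 0.00918; the alternatives spanned 0.00918 to 0.995).

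The membrane-bound semaphorins of classes 5 and 6 were lower in shARF, apart from Sema6d (log2 fold change -0.09, adjusted p = 0.349) and Sema5b, which had 4 counts over the shARF group and 2 over the shNT group. Sema6a, a transmembrane ligand of plexins A2 and A4, was at 0.469, 0.456 and 0.268 CPM in shARF and 5.71, 4.82 and 6.97 CPM in shNT. It showed the largest fall among the guidance genes tested (-3.86, SE 0.24, adjusted p = 1.6e-05). Sema6c was at 2.45, 2.92 and 2.95 CPM in shARF and 6.99, 7.82 and 7.48 CPM in shNT (-1.42, adjusted p = 3.22e-05). The values of both genes were separated by group. Sema6b was at 0.692, 1.07 and 0.671 CPM in shARF and 1.13, 1.64 and 2.28 CPM in shNT (-1.05, adjusted p = 0.0267). This call was lost when shARF replicate 1 (adjusted p = 0.085), shARF replicate 3 (0.0847), shNT replicate 2 (0.0603) or shNT replicate 3 (0.0742) was left out. Sema5a, a transmembrane semaphorin with thrombospondin repeats, was at 5.02, 5.68 and 5.995 CPM in shARF and 20.6, 20.1 and 20.04 CPM in shNT, a clear separation (-1.86, SE 0.08, adjusted p = 2.6e-06).

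Other membrane-bound semaphorins went both ways. Sema7a, which is anchored by a lipid and binds plexin-C1 and integrins, was at 8.75, 10.7 and 9.19 CPM in shARF and 3.52, 3.9 and 3.62 CPM in shNT, above every shNT library (log2 fold change 1.38, SE 0.10, adjusted p = 3.75e-05). Among class 4 semaphorins 1 rose and 3 fell. Sema4f was at 1.58, 2.3 and 2.06 CPM in shARF and 1.02, 0.883 and 0.68 CPM in shNT (1.19, adjusted p = 0.00294). Sema4a was at 0.915, 1.19 and 1.48 CPM in shARF and 2.43, 2.2 and 2.55 CPM in shNT (-1.0, adjusted p = 0.00363). Neither gene overlapped between the groups. Sema4g and Sema4c fell by 0.84 and 0.28 on the log2 scale, while Sema4b and Sema4d did not pass the test (adjusted p = 0.117 and 0.0901). Sema4b was called lower with library sizes alone as the scaling (-0.19, adjusted p = 0.0154; the alternatives spanned 0.0154 to 0.306).

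**Figure D3:**
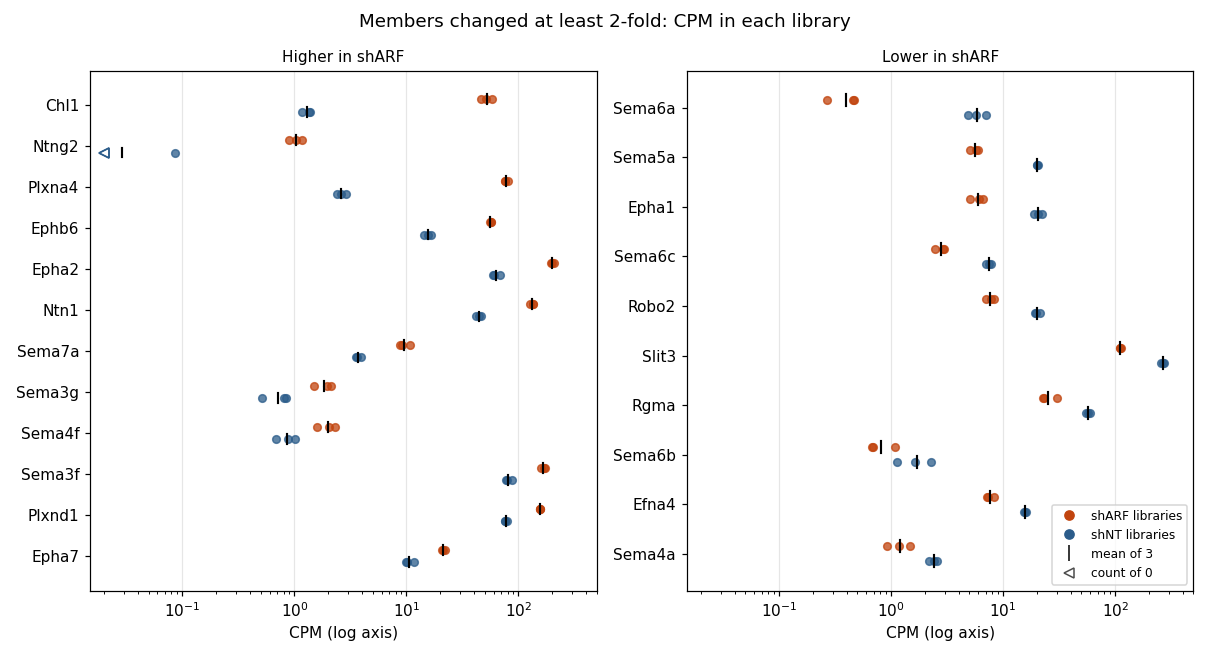
CPM on a log axis in each shARF library (orange, upper points) and shNT library (blue, lower points) of the 22 guidance genes that were called, changed at least 2-fold and averaged at least 1 CPM in a group. Black ticks are means of 3 libraries and open triangles mark a count of 0. For all 22 genes shown, the shARF points lie on 1 side of the shNT points, although Sema6b comes close.

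Eph receptors moved mostly upward while their ephrin ligands changed little. Of 9 Eph receptors tested, 7 rose and 1 fell, with a median log2 fold change of 0.57. Thus 88.9% of them were called, against 56.4% of all genes tested, of which 28.8% rose and 27.7% fell. The summed level per kb of exon was 118 ± 3.3 CPM per kb in shARF and 68.5 ± 2.68 CPM per kb in shNT. Epha2 (ENSMUSG00000006445.3; GRCm38 chromosome 4, 141301240 to 141329384, plus strand), a receptor for ephrin-A ligands studied in epithelia and tumours, was at 207, 194 and 197 CPM in shARF and 60.1, 59.9 and 67.9 CPM in shNT. It carried the largest part of that difference (1.67, SE 0.06, adjusted p = 1.21e-06), at 42.7 ± 1.38 CPM per kb in shARF and 13.4 ± 0.975 CPM per kb in shNT. Ephb6, a receptor whose kinase domain lacks activity, was at 55.3, 56.3 and 56.6 CPM in shARF and 14.4, 16.6 and 15.6 CPM in shNT (1.85, SE 0.06, adjusted p = 9.46e-07). Epha7 was at 22.0, 21.4 and 20.9 CPM in shARF and 10.1, 10.0 and 11.8 CPM in shNT (1.01, SE 0.08, adjusted p = 4.03e-05). In all of these the groups were apart. Epha3 rose by 0.94 on the log2 scale, and Ephb2, Ephb3 and Ephb4 by 0.57, 0.36 and 0.31.

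Ephb4, the receptor that pairs with ephrin-B2 between veins and arteries, had the highest level per kb of exon among Eph receptors when the libraries were pooled, but the order differed by group. Ephb4 was at 32.9 CPM per kb in shARF, below Epha2 at 42.7, and at 26.6 CPM per kb in shNT, above Epha2 at 13.4. In CPM Ephb4 was at 160, 145 and 153 CPM in shARF and 116, 128 and 126 CPM in shNT (adjusted p = 0.00162). Epha1 was the exception among Eph receptors, at 6.58, 5.04 and 6.13 CPM in shARF and 18.7, 20.4 and 22.3 CPM in shNT, with every shARF library lower (log2 fold change -1.79, SE 0.12, adjusted p = 2.04e-05). Its exons share 6.01% of their bases with the opposite strand of Zyx, a far more abundant gene, and no source used here says whether reads were counted by strand. Epha4 did not pass (adjusted p = 0.203), although with library sizes alone as the scaling it was called lower (-0.19, adjusted p = 0.0394; the alternatives spanned 0.0394 to 0.473). Epha5, Epha6 and Epha10 had a count of 0 in every library, which allows up to 0.0225 CPM over the shARF group and 0.0221 CPM over the shNT group, counting error only. Epha8 and Ephb1 had 8 and 4 counts over the shNT group and 0 over the shARF group.

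Among 8 ephrins, 2 rose and 1 fell, so 37.5% were called, against 56.4% of all genes tested. Efnb2, which encodes ephrin-B2 and had the highest level per kb of exon among ephrins, was at 196, 197 and 193 CPM in shARF and 170, 165 and 166 CPM in shNT. All shARF libraries were higher, by a small step (log2 fold change 0.23, SE 0.02, adjusted p = 1.78e-04). Efna5 averaged 76.8 ± 0.734 CPM in shARF and 57.6 ± 2.18 CPM in shNT (0.41, adjusted p = 1.16e-04). Efna4, a lipid-anchored ligand of EphA receptors, was at 7.34, 8.33 and 7.23 CPM in shARF and 15.5, 15.9 and 15.6 CPM in shNT, so the groups were apart (-1.04, SE 0.07, adjusted p = 2.55e-05). An antisense gene overlaps 10.5% of the exon bases of Efna4, but it had 35 counts over all libraries, against 3149 for Efna4. Efnb1, also known from craniofacial and limb development, averaged 50.1 ± 2.82 CPM in shARF and 48.7 ± 1.47 CPM in shNT (adjusted p = 0.54). Efna1 was at 12.03, 10.9 and 12.1 CPM in shARF and at 5.39, 12.3 and 12.4 CPM in shNT, where replicate 1 lay below the other libraries (adjusted p = 0.569). Efna2, Efna3 and Efnb3 did not pass either, with adjusted p between 0.77 and 0.918. The summed level of ephrins was 76.5 ± 0.932 CPM per kb in shARF and 71.3 ± 1.8 CPM per kb in shNT.

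The stretches before the starts of the genes that moved in opposite directions are shown to set their base composition side by side. They are the 250 bases upstream of the RefSeq start, written 5′ to 3′ on the gene's strand from RefSeq on GRCm38.p6. Shown are the pair that rose most and the pair that fell most among genes of the plot of CPM by library that have 1 RefSeq start lying within 50 bases of the GENCODE start. Capitals mark the GC box, the letters GGGCGG on either strand, overlapping matches included.
Ephb6 (chr6:41605261-41605510, plus strand, rose): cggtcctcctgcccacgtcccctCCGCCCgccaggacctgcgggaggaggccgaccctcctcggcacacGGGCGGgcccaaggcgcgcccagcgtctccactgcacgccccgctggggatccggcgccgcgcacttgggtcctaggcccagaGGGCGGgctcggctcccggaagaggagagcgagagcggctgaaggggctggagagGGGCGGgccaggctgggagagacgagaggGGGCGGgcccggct
Epha2 (chr4:141300971-141301220, plus strand, rose): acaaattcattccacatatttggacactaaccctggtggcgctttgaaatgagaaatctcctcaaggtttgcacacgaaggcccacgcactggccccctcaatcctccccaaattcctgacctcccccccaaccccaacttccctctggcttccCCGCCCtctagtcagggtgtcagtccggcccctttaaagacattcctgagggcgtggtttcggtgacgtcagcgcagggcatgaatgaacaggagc
Sema5a (chr15:32244563-32244812, plus strand, fell): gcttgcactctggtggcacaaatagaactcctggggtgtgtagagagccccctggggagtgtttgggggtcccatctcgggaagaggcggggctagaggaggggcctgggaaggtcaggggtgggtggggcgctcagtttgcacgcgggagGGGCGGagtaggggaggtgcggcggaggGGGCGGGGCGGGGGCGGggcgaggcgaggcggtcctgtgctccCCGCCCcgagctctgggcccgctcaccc
Epha1 (chr6:42373269-42373518, minus strand, fell): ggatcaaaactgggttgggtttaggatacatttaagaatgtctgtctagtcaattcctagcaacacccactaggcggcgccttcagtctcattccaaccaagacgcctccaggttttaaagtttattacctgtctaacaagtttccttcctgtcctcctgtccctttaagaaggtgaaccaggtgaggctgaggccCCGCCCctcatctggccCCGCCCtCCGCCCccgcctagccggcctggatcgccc
The Ephb6 stretch held 5 GC boxes, 27 CpG dinucleotides and 76.8% G and C, and that of Epha2 held 1 GC box, 9 CpG and 55.6% G and C. Sema5a had 5 GC boxes, 17 CpG and 72% G and C, and Epha1 had 3 GC boxes, 9 CpG and 54.4% G and C. High and low CpG content thus occurred in both directions. RefSeq windows were matched for 64 of the 75 genes. A GC box was found in 58 of their 83 windows (69.9%), against 32.7% of 32851 windows of all genes, and in 16 of 23 windows of genes that rose and 23 of 30 of genes that fell. The TATA box letters TATAAA were found in 4 of the 83 windows (4.82%), against 12.4% of all windows, and the CCAAT letters in 25 (30.1%), against 33.8%. These matches describe letters and show no binding.

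Netrin-1 and its receptors Unc5b and neogenin were higher in shARF. Ntn1 (ENSMUSG00000020902.12; GRCm38 chromosome 11, 68209364 to 68400823, minus strand), which encodes the secreted laminin-like cue netrin-1, had the highest level per kb of exon among netrins. It was at 135, 135 and 126 CPM in shARF and 41.5, 46.6 and 44.9 CPM in shNT. Every shARF library was above every shNT library, and the fold was 2.98 (log2 fold change 1.58, SE 0.05, adjusted p = 1.18e-06). Unc5b, a netrin receptor tied to repulsion and to blood vessels, had the highest level per kb among the netrin and RGM receptors, with 269, 265 and 266 CPM in shARF and 145, 163 and 144 CPM in shNT (0.82, SE 0.05, adjusted p = 1.3e-05). Neo1, which encodes neogenin, a receptor for netrins and RGM proteins, was at 302, 306 and 313 CPM in shARF and 175, 178 and 176 CPM in shNT (0.80, SE 0.02, adjusted p = 5.55e-07). Both receptors were separated by group. Unc5c averaged 132 ± 7.4 CPM in shARF and 124 ± 11.7 CPM in shNT and overlapped (0.09, adjusted p = 0.351). Dcc, the classical receptor for attraction to netrin-1, and Unc5d had a count of 0 in every library. Unc5a, which was not tested, had 0, 6 and 18 counts in the shARF libraries and 0 in every shNT library, so shARF replicate 3 held most of its counts and shARF replicate 1 held none.

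The other netrins were low. Ntng2, a lipid-anchored netrin of synapses, was at 1.03, 0.89 and 1.16 CPM in shARF, against 0.0869 CPM in shNT replicate 1 and no count in the other shNT libraries (adjusted p = 7.58e-04). Its fold change is set by few counts, and 14% of its exon bases are shared with another transcript of the same strand. That transcript had 1028 counts over all libraries, against 141 for Ntng2. Ntng1, the relative of Ntng2, averaged 0.231 ± 0.172 CPM in shARF and 0.991 ± 0.0707 CPM in shNT and fell (log2 fold change -2.08, SE 0.45, adjusted p = 0.00659). Ntn4, a netrin of basement membranes, was at 6.9, 7.12 and 7.56 CPM in shARF and 6.8, 5.48 and 5.47 CPM in shNT (0.28, adjusted p = 0.0581). Without shNT replicate 1 it was called higher (0.39, adjusted p = 0.01; the alternatives spanned 0.01 to 0.172). Ntn3 did not pass (adjusted p = 0.102), and Ntn5 had 0 counts over the shARF group and 22 over the shNT group, with 23.4% of its exon bases overlapped by Sec1 on the opposite strand.

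Both RGM ligands and the abundant SLIT ligands, Slit2 and Slit3, were lower in shARF. Rgma, a lipid-anchored ligand of neogenin and a co-receptor for BMP signals, was at 23.0, 30.1 and 22.8 CPM in shARF and 55.1, 59.9 and 57.0 CPM in shNT. The groups were apart (log2 fold change -1.18, SE 0.11, adjusted p = 1.32e-04), and Rgma had the higher level per kb of the RGM pair. Rgmb averaged 20.4 ± 0.96 CPM in shARF and 34.5 ± 1.04 CPM in shNT (-0.75, adjusted p = 2.66e-05). Slit3 (ENSMUSG00000056427.10; GRCm38 chromosome 11, 35121224 to 35708507, plus strand), a secreted ligand of ROBO receptors, was at 110, 112 and 110 CPM in shARF and 256, 268 and 275 CPM in shNT. Its values were tight in both groups (-1.27, SE 0.03, adjusted p = 4.28e-07), and it had the highest level per kb of the SLIT genes, 18.3 ± 0.235 CPM per kb in shARF and 43.9 ± 1.63 CPM per kb in shNT. Slit2 was at 116, 131 and 134 CPM in shARF and at 256, 167 and 192 CPM in shNT. The shNT libraries spread more widely there but stayed above shARF (-0.69, SE 0.15, adjusted p = 0.00776). Slit1, known mainly from the brain, had 4 counts over the shNT group and 0 over the shARF group.

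The ROBO receptors that were present went in opposite directions. Robo1 was at 87.1, 77.7 and 83.5 CPM in shARF and 47.2, 48.7 and 45.4 CPM in shNT (log2 fold change 0.81, SE 0.05, adjusted p = 2.12e-05). Robo2 was at 8.21, 7.85 and 6.98 CPM in shARF and 21.4, 19.8 and 19.1 CPM in shNT (-1.39, SE 0.08, adjusted p = 1.23e-05). Neither overlapped between the groups. Robo1 was higher per kb of exon in both groups, at 5.01 ± 0.286 against 0.452 ± 0.0373 CPM per kb for Robo2 in shARF and 2.85 ± 0.103 against 1.18 ± 0.0681 CPM per kb in shNT. Robo3, of commissural neurons, and Robo4, of endothelium, had a count of 0 in every library.

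**Figure D4:**
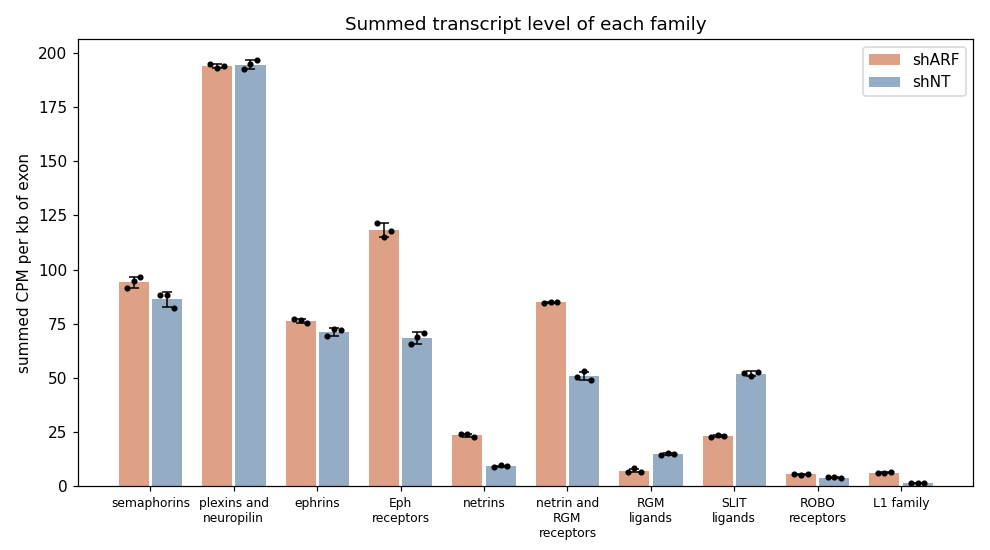
CPM per kb of exon, summed over the members of each family, in shARF (left bars) and shNT (right bars). Bars are means of 3 libraries, error bars the SD and points the libraries. Eph receptors, netrins and the netrin and RGM receptors are higher in shARF, RGM and SLIT ligands are lower, and plexins with Nrp2 are level at 194 and 195 CPM per kb.

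Among the 61 genes tested the largest rise was in Chl1 (ENSMUSG00000030077.11; GRCm38 chromosome 6, 103510586 to 103750211, plus strand), the close homolog of L1, an adhesion molecule of the immunoglobulin superfamily that acts as a guidance co-receptor. It was at 51.5, 46.2 and 57.9 CPM in shARF and 1.37, 1.17 and 1.36 CPM in shNT, a fold of 39.9 (log2 fold change 5.32, SE 0.12, adjusted p = 2.91e-07). L1cam, the founding member of the family, averaged 14.99 ± 1.06 CPM in shARF and 10.9 ± 0.478 CPM in shNT (0.46, adjusted p = 0.00141). Per kb of exon, Chl1 was at 4.22 ± 0.477 CPM per kb against 2.04 ± 0.144 CPM per kb for L1cam in shARF, and at 0.106 ± 0.00912 against 1.48 ± 0.065 CPM per kb in shNT. The order of the pair was thus reversed between the groups.

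Ligands and receptors of 1 pathway are set side by side here from the values above. Netrin-1 rose together with Unc5b and Neo1, while the receptor gene Unc5c did not pass the test and Dcc had no count. In the RGM axis the ligands Rgma and Rgmb fell while their receptor Neo1 rose. In the SLIT axis Slit2, Slit3 and Robo2 fell while Robo1 rose. Of the known partners Sema6a and Plxna4, the ligand fell and the receptor rose. Sema3f rose while Nrp2 fell, and Sema7a rose while Plxnc1 fell. The Plxnc1 call rests on values below 1 CPM and was lost when certain single libraries were left out. Protein on the cell surface was not measured.

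Genes that act beside or below the receptors also went both ways. Of 43 cytoplasmic effectors, 40 were tested, 16 rose and 15 fell, with a median log2 fold change of -0.003. Of 19 co-receptors and other cues, 13 were tested, 4 rose and 6 fell, with a median of -0.72. Over all genes tested 28.8% rose and 27.7% fell, 56.4% together. Rnd1, a small GTPase that binds plexins, was at 40.3, 40.8 and 37.8 CPM in shARF and 9.62, 9.92 and 8.58 CPM in shNT (2.08, SE 0.07, adjusted p = 1.13e-06). Srgap1, a GTPase-activating protein of ROBO signalling, was at 45.2, 47.5 and 48.6 CPM in shARF and 15.1, 17.3 and 14.4 CPM in shNT (1.59, adjusted p = 4.79e-06). Both were well separated. Rgs3, which has an isoform that binds ephrin-B proteins, was at 36.6, 36.5 and 38.7 CPM in shARF and 12.9, 11.7 and 13.7 CPM in shNT (1.54, adjusted p = 3.59e-06). Mical2, of a family of actin-oxidising enzymes that act below plexins, was at 316, 320 and 321 CPM in shARF and 153, 155 and 151 CPM in shNT (1.06, adjusted p = 2.25e-07). These too did not overlap between groups. Flrt1, a transmembrane protein whose relatives bind UNC5 receptors, was at 11.5, 11.2 and 11.6 CPM in shARF and 31.2, 29.9 and 31.4 CPM in shNT (-1.43, adjusted p = 9.82e-07). Met, the HGF receptor that associates with B plexins, was at 42.5, 30.7 and 43.0 CPM in shARF and 91.9, 86.2 and 83.7 CPM in shNT (-1.17, adjusted p = 2.69e-04).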

How the data were processed

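The measurements are gene counts, whole numbers that the authors deposited in 1 table. Per the submitters' processing notes, HISAT2 2.1.0, StringTie 1.3.2, Trim Galore 0.4.1, Picard 2.13.2, DESeq2 1.34.0, SAMtools 0.1.19 and GRCm38 were used, with no role or order given. The counting tool, its strand setting and any removal of duplicates are named in none of the sources used here, so reads of antisense neighbours may be mixed and the most abundant genes understated. Another 6 columns match no sample and were not used. Columns were matched to titles on group and replicate, since the index number in the shARF columns differs. Symbols, coordinates and exon lengths came from GENCODE M21 (GRCm38), which held 54723 of the 54752 IDs; the other 29 rows held 0.0029% of counts.

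Counts were tested with edgeR 4.0.16, R 4.3.3 (quasi-likelihood, two-sided, group as the only term, TMM scaling, filterByExpr with a minimum count of 10 and total of 15, prior count 0.125, threshold 0.05 after Benjamini-Hochberg adjustment over 17128 genes). The steps were tested on simulated counts. CPM are scaled by the TMM factors, and CPM per kb divide by the union of exons. Within a group, libraries differed by a chi-square of 13.8 to 18.7 per gene, more than counting noise, so none was treated as a repeat. Genes given by library were those called with at least 2-fold change and a mean of at least 1 CPM in a group, the member of each family with the highest level per kb, and the 6 called pathway genes with the largest fold changes among those averaging at least 5 CPM over all 6 libraries; others given by library were chosen after their values were seen. The members, lists and alternatives were chosen with earlier results of these data known. Alternatives were other scalings, filters, limma-voom (limma 3.58.1), DESeq2 1.42.0, a replicate block and each library left out.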

Additional observations from a re-analysis of the deposited data

How the results depend on the processing

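The counts of guidance genes varied little: 23 to 25 rose and 20 to 25 fell over 14 alternatives, and 43 of the 46 calls held in each of those that tested the gene, the exceptions being Sema3b, Sema6b and Plxnc1, all lost when single libraries were left out. No called gene changed sign. With library sizes alone, which moved the median of all genes to -0.10 on the log2 scale, the calls over all genes were 4023 higher and 5874 lower, against 4930 and 4737, and those of guidance genes 24 and 25. Sign changes occurred in genes that had not passed the test, and Plxna1 passed it on 1 occasion: with library sizes alone Plxna1 (-0.046), Unc5c (-0.0027), Efnb3 (-0.055), Efna2 (-0.047) and Efnb1 (-0.049), and for Sema3a with limma-voom (0.0077) and the replicate block (0.018). With single libraries left out, Sema3a ranged from -0.23 to 0.14, Sema3e from -0.046 to 0.034, Efna1 from -0.091 to 0.40, Efna2 from -0.055 to 0.12, Efna3 from -0.43 to 0.20 and Efnb3 from -0.21 to 0.18. The replicate block gave 24 higher and 22 lower guidance genes, and 4604 higher and 4309 lower over all genes. Same-numbered libraries had deviations correlated at -0.068, -0.012 and 0.022, and 2 of the 6 libraries correlated best with their own number, so the numbers were not taken as pairs. Low counts limit what can be said of genes near 1 CPM or below, such as Sema6b and Plxnc1.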

Other observations

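The guidance genes lie on many chromosomes. On chromosome 6, 5 of 7 tested rose (Plxna4, Chl1, Ephb6, Sema4f and Plxnd1) and Epha1 fell, while the median log2 fold change of all 886 genes tested there was -0.08. On chromosome 4 all 3 tested (Epha2, Epha7 and Ephb2) rose, beside a median of 0.19 over 989 genes. On chromosome 3, 4 of 7 fell (Efna4, Sema4a, Sema6c and Ntng1) and none rose, beside a median of -0.03 over 969 genes. Other chromosomes went both ways: on chromosome 5, 2 of 6 rose and 2 fell, and on chromosome 9, 3 of 5 rose and 2 fell. Over all genes tested 28.8% rose and 27.7% fell, and whether the calls follow chromosomes was not tested.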
